A study of Mus musculus with 48 samples.

Results

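Chromatin accessibility was compared between progenitor (Tprog) and terminally exhausted (Tterm) CD8 T cells that carried the control guide and were recovered from tumours of aged mice. The comparison rests on 4 of the series' 48 libraries, 2 of Tprog and 2 of Tterm, chosen by the sample titles (A_OTC_Tprog and A_OTC_Tterm), and covers all 53868 peaks of the deposited table. The cells were OT-1 CD8 T cells from donors with the CD45.1 marker and a Cas9 transgene. Their receptor recognises an ovalbumin peptide. They were transduced with a lentivirus that carried an sgRNA and an ametrine reporter, sorted for the reporter and transferred 1 day before B16-OVA melanoma cells were inoculated. At day 15 they were sorted from the tumours as Slamf6+ Tim-3- (Tprog) or Slamf6- Tim-3+ (Tterm). The guide is labelled OTC control, and the letter A in the titles was read as aged host, since no label gives an age in weeks. Both groups share Cas9, the control guide, the tumour line and the host age, so host age and transduction do not differ between them. Each library is a pool of sorted cells from independent mice, with 5000 to 50000 cells per combination of guide and state, and the p-values measure only the spread between such pools, estimated over the groups of the whole series. A pool of sorted cells gives the mean signal over its cells: more open sites per cell and more cells with an open site cannot be told apart. Further libraries entered as a comparison: the transitory (Ttran, Slamf6+ Tim-3+) and age-associated dysfunctional (Ttad, Slamf6- Tim-3-) states of the same hosts and guide (2 libraries each), Tprog and Tterm with guides against Zfp219 or Dusp5 in aged hosts (2 libraries each), and control-guide Tprog and Tterm from young hosts (2 and 3 libraries).

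ATAC-seq measures where the Tn5 transposase can insert into DNA, which marks promoters and enhancers that are not packed into nucleosomes. In tumours and chronic infection, CD8 T cells that meet antigen for a long time become exhausted. A self-renewing progenitor pool, kept by the HMG-box factor TCF-1 (gene Tcf7) and marked by the adhesion receptor Slamf6, feeds a terminal pool that carries the inhibitory receptor Tim-3 (gene Havcr2). Terminal cells are known for high cytotoxic and inhibitory receptor genes, little proliferation and a chromatin state that is hard to reverse.

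The promoters below are shown because each lies at a start-site peak that differed between the states and belongs to a gene described below. Tcf7, Tcf12 and Cd101 were more open in Tprog, and 3 granzymes and the chemokine Ccl9 in Tterm. Each sequence is the 250 bases before a RefSeq start site (GRCm38.p6), read 5′ to 3′ on the gene's strand, and capitals mark a match to any of 12 motifs searched on both strands. The Tcf7 window lies at chr11:52282596-52282845 on the minus strand, Tcf12 at chr9:71896097-71896346 (minus), Cd101 at chr3:101029554-101029803 (minus), Gzmf at chr14:56211408-56211657 (minus), Gzmd at chr14:56132594-56132843 (minus), Gzmc at chr14:56234658-56234907 (minus) and Ccl9 at chr11:83578637-83578886 (minus).
Tcf7: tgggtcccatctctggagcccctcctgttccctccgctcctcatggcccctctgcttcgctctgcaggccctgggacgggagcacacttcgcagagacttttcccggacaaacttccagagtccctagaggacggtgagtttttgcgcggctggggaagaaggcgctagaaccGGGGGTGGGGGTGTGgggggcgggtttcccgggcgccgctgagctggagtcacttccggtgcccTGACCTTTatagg
Tcf12: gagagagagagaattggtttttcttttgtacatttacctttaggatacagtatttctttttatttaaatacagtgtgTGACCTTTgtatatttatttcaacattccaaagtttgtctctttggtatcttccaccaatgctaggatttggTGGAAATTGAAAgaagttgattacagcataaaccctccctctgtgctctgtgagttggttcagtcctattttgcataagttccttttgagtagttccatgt
Cd101: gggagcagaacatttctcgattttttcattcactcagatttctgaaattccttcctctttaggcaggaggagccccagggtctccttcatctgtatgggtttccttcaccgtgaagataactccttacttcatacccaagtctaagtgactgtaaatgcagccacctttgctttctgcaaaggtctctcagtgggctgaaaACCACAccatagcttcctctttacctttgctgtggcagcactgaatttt
Gzmf: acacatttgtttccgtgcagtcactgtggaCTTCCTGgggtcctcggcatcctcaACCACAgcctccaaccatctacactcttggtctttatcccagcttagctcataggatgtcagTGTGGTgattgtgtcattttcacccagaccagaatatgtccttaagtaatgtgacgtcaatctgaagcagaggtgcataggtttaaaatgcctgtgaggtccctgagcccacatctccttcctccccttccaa
Gzmd: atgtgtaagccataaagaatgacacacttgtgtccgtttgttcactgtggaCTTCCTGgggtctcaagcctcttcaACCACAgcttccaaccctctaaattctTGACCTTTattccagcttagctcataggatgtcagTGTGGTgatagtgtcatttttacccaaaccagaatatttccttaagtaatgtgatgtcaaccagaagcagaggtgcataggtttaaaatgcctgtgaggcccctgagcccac
Gzmc: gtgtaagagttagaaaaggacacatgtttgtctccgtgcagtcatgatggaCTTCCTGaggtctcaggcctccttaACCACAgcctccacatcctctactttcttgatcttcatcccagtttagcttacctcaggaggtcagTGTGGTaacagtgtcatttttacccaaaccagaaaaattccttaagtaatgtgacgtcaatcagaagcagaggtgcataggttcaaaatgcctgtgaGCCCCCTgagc
Ccl9: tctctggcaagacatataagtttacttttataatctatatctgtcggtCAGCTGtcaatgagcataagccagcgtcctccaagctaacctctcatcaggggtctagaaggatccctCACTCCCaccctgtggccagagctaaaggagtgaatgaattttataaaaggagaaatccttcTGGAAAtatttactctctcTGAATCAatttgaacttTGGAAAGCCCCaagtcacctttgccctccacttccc
Counted from 1 at the 5′ end, the Tcf7 window held a KLF match (GGGNGTG) starting at bases 174, 180 and 182 and an NR4A match (AAAGGTCA, here on the opposite strand) at 238. Tcf12 held NR4A at 78, NFAT (TGGAAA) at 150 and an overlapping IRF match (GAAA and GAAA with any 2 bases between) at 152, and Cd101 held RUNX (ACCACA) at 202. The 3 granzyme windows each held an ETS match (CAGGAAG, on the opposite strand) followed by a pair of RUNX matches, at bases 31, 56 and 118 in Gzmf, at 52, 77 and 139 in Gzmd and at 52, 77 and 143 in Gzmc. Gzmd also held NR4A at 104 and Gzmc a CTCF match (AGGGGGC) at 240. Without gaps, Gzmf and Gzmd were identical at 202 of 229 bases (88.2%), and Gzmc matched Gzmd at 142 of 246 (57.7%), so reads from these neighbouring paralogs could be split between them and their values are uncertain to that extent. Ccl9 held an E-box (CAGCTG) at 49, KLF on the opposite strand at 117, NFAT at 179 and 215, a bZIP match (TGANTCA), the AP-1 type, at 198 and NF-kB (GGG and TTTCC with any 2 bases between, on the opposite strand) at 216. A match is a run of letters, not a bound site.

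The sorted markers Slamf6 and Havcr2, and Tcf7, differed in the labelled direction at most of their peaks. Accessibility is given as normalized reads, the reads in a peak divided by the library's size factor, and differences as log2(value + 1) in Tprog minus Tterm. At Tcf7, 8 of 12 peaks passed limma at an adjusted p under 0.05 as higher in Tprog and none as lower, while 20.1% of all peaks passed, 8.88% as higher and 11.2% as lower. Peaks count for a gene when they overlap its body, or lie within 100 kb and overlap no other gene while this one is the nearest. The peak within the gene at chr11:52273512-52275959, 8.3 kb past the most upstream start site, had 628 and 578 normalized reads in Tprog and 89.3 and 94.4 in Tterm (603 ± 36.0 against 91.9 ± 3.57, SD, n = 2), a log2 difference of 2.70 ± 0.20 (SE; limma adjusted p = 6.27e-21). The start-site peak, chr11:52281225-52284085, whose window is printed above, had 483 and 523 in Tprog and 144 and 119 in Tterm (1.93 ± 0.19, adjusted p = 2.44e-14). Neither peak's groups overlapped, which held at 99.7% of all called peaks and 59.4% of all peaks. The strongest Tcf7 peak, 15.9 kb outside the gene body at chr11:52299318-52300198, differed far less, with 1026 and 1020.3 against 897 and 849.5 (0.23 ± 0.09, adjusted p = 0.0502).

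Slamf6, the surface receptor used to sort progenitors, had 5 of 6 peaks higher in Tprog. Its largest difference lay 16.6 kb beyond the gene body at chr1:171965523-171966661, with 322 and 286 in Tprog and 53.4 and 51.3 in Tterm (2.51 ± 0.25, adjusted p = 8.42e-14). Its strongest peak, 1.03 kb outside the gene body at chr1:171915612-171916427, had 527 and 562 against 318 and 367 (0.67 ± 0.15). The sixth peak, 46.3 kb past the start, held few reads (34.0 and 42.6 against 18.5 and 12.8) and did not pass the test (adjusted p = 0.152). Havcr2 showed the opposite: 4 of 5 peaks were lower in Tprog. Its start-site peak, chr11:46452770-46455391, had 585 and 523 in Tprog and 1351 and 1212 in Tterm (554 ± 43.8 against 1281 ± 98.6, SD, n = 2; log2 difference -1.21 ± 0.08, adjusted p = 4.68e-22). The labels of the 4 libraries and their accessibility at the sorted markers thus pointed the same way.

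**Figure D1:**
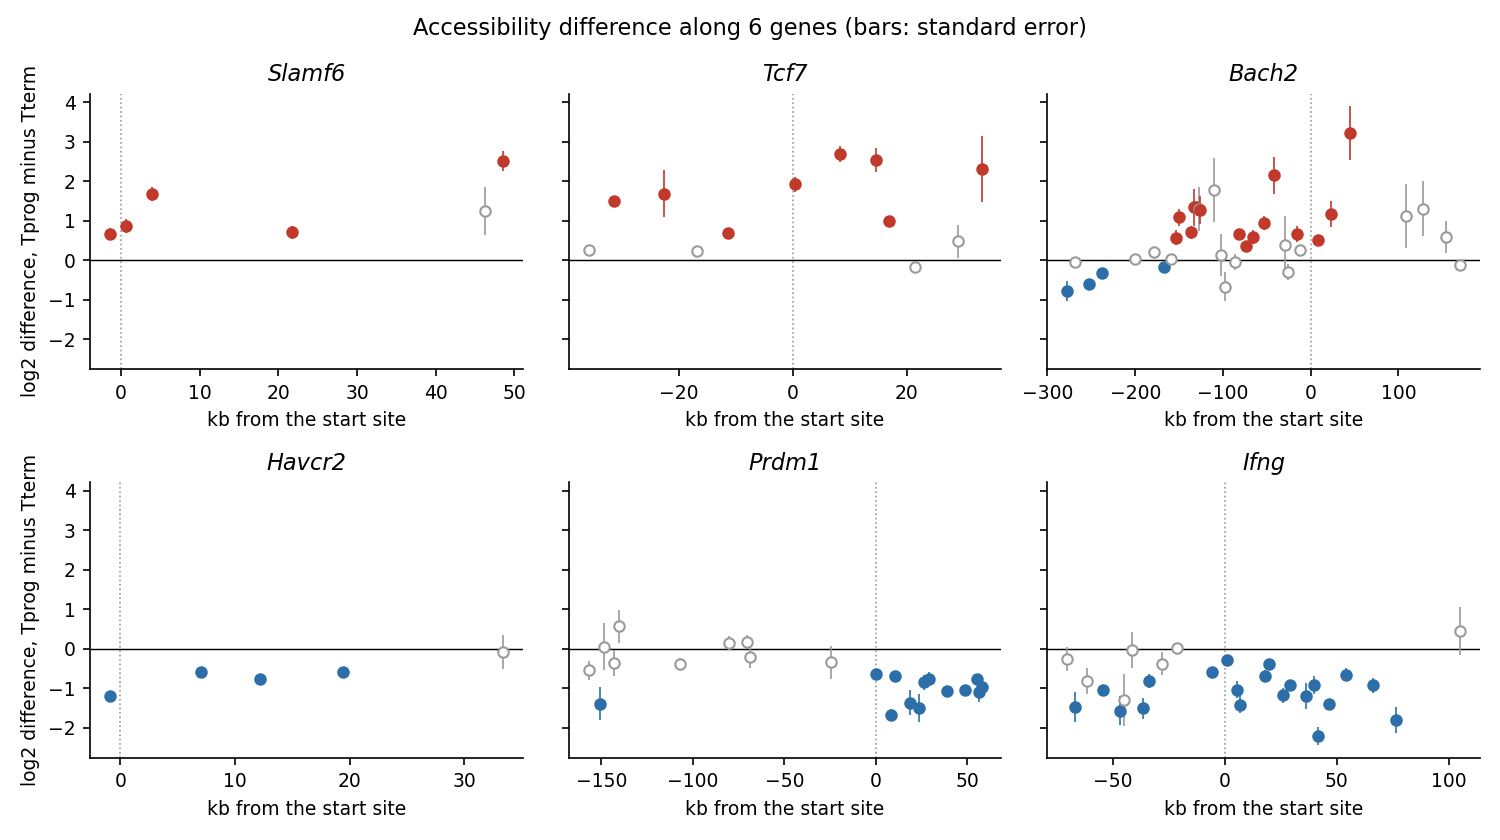
Log2 difference (Tprog minus Tterm, y axis) of every peak assigned to 6 genes, against distance in kb (x axis). Distance runs from the most upstream start site among the RefSeq promoter windows used (dotted line) to the peak's centre, and positive values lie downstream. At Bach2 and Prdm1 the annotated gene body extends upstream of that start site, so some peaks with negative values lie within it. Filled points passed limma at adjusted p under 0.05 (red higher, blue lower in Tprog), open points did not, and bars are standard errors; Tcf7 and Slamf6 peaks lie above 0 with 1 exception at Tcf7, while 20 of 27 Ifng peaks and 13 of 22 Prdm1 peaks are filled blue.

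Over the whole table, 10806 of 53868 peaks (20.1%) differed between the states at a Benjamini-Hochberg adjusted p under 0.05 in limma, 4783 (8.88%) higher and 6023 (11.2%) lower in Tprog. Which direction held more peaks depended on the scaling: with libraries rescaled to the same total, 5642 were higher and 4930 lower. The peaks that were higher differed by more: their median log2 difference was 1.14, against -0.77 for those that were lower and 0.014 over all peaks. They were also weaker, with a median of 113 normalized reads against 249. Among the weakest 25% of peaks, all 750 higher and 469 lower calls reached a size of 1. In the strongest 25% this held for 85 of 918 and 157 of 2614. The part of peak strength in the gap between the medians was not tested. A difference of at least 1 was reached by 2746 peaks that were higher and 2157 that were lower, and one of at least 3 by 178 and 44. The 2 Tprog libraries did not overlap the 2 Tterm libraries at 10769 of the called peaks (99.7%) and at 59.4% of all peaks. A lack of overlap at any named called peak thus adds little to its call. Leaving out Tprog replicate 1 left 7076 calls. The 4 libraries held 11511619 and 14660613 (Tprog) and 12447296 and 14780826 (Tterm) reads in peaks. Each pair of replicates differed by more than sampling noise, so no library was counted as a copy of another.

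**Figure D2:**
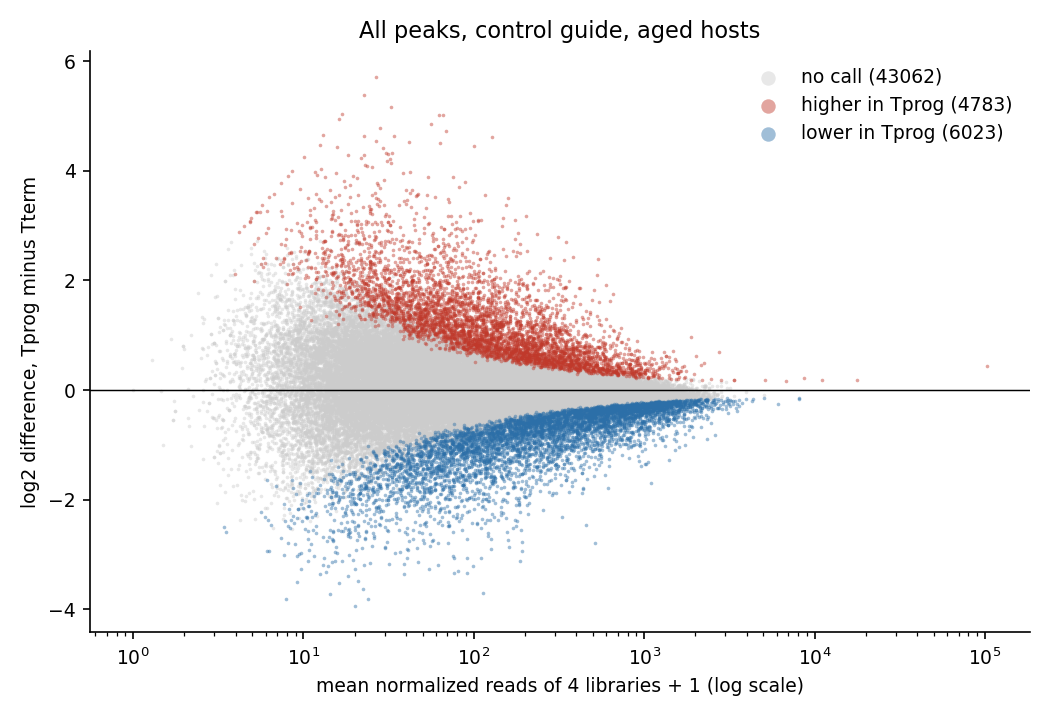
Log2 difference between Tprog and Tterm (y axis) against the mean normalized reads of the 4 libraries plus 1 (x axis, log scale) for all 53868 peaks. Red points (4783) were higher and blue points (6023) lower in Tprog at a limma adjusted p under 0.05; the red points reach further from 0 and the blue points crowd at small negative differences among the strong peaks.

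The same contrast in libraries with no sample in common gave many of the same peaks. The spread of each peak was, however, estimated jointly over the groups of the whole series. A peak with a small spread is thus favoured in every contrast, and the lists of called peaks are not independent. How far this raised the overlaps below was not tested. Of the 4783 peaks higher in Tprog, 2566 (53.6%) were also higher with the Zfp219 guide in aged hosts, 2557 (53.5%) with the Dusp5 guide and 3351 (70.1%) with the control guide in young hosts. These are 56.8%, 45.9% and 44.6% of those contrasts' own lists of 4514, 5569 and 7512 peaks, which make up 8.38%, 10.3% and 13.9% of all peaks. Of the 6023 peaks lower in Tprog, 3489 (57.9%), 3757 (62.4%) and 3313 (55.0%) were also lower, or 62.4%, 55.5% and 49.0% of lists of 5589, 6767 and 6767 peaks (10.4%, 12.6% and 12.6% of all). Calls in the opposite direction numbered 4, 66 and 25 among the higher peaks and 55, 21 and 135 among the lower ones. In all 4 contrasts, 1731 peaks were higher and 2197 lower in Tprog.

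Transcription factors of the stem-like programme had more open peaks in Tprog. Of 139 peaks at 11 genes, 46 (33.1%) were higher and 12 (8.63%) lower, with a median log2 difference of 0.30, while 8.88% of all peaks were higher and 11.2% lower. Id3, which blocks E-protein partners and marks memory-like cells, was higher at 6 of 7 peaks. Its strongest peak, 36.5 kb from the gene at chr4:136106423-136107357, had 738 and 783 in Tprog and 303 and 291 in Tterm (1.35 ± 0.18, adjusted p = 1.56e-09), and its start-site peak had 489 and 466 against 145 and 182 (1.55 ± 0.18). Bach2, a repressor that restrains effector genes, was higher at 15 of 35 peaks and lower at 4. The 4 lower ones lie at -277.8 to -167.5 kb from the start site used here. The peak at -167.5 kb, its strongest, lies within the annotated gene body and the others lie outside it. Satb1, a chromatin organiser, was higher at 4 of 9 peaks, and Bcl6, the repressor of Prdm1, at 3 of 5. The strongest Bcl6 peak had 773 and 716 against 553 and 631 (0.33 ± 0.10). The groups did not overlap, but this call was lost in some alternatives (highest adjusted p = 0.215).

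Not every gene on that list was more open in progenitors. Myb, a regulator of self-renewal, was lower at 5 of 14 peaks and higher at 2. Its largest difference, 8.86 kb from the gene at chr10:21115176-21116075, was 126 and 132 in Tprog against 452 and 503 in Tterm (-1.88 ± 0.19, adjusted p = 2.24e-13). Its strongest peak had 1258 and 1275 against 1668 and 1682 (-0.40 ± 0.08). Both sets of Tprog values lay below both Tterm values, and 99.7% of all called peaks had no overlap between the states. Lef1, a relative of Tcf7, was higher at 3 and lower at 2 of 16 peaks. Foxo1, which drives homing genes, had a strong start-site peak with 1893 and 1812 against 1639.7 and 1541 (0.22 ± 0.07), a call lost in some alternatives (highest adjusted p = 0.195). Ikzf2 had 554 and 547 against 416 and 398 at its strongest peak (0.44 ± 0.13, highest adjusted p over the alternatives 0.0949).

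The peaks that differed at homing receptors and progenitor surface genes were almost all higher in Tprog. Of 116 peaks at 12 genes, 49 (42.2%) were higher in Tprog and 1 (0.862%) was lower, with a median log2 difference of 0.56. Over all peaks, 8.88% were higher and 11.2% lower. Ccr7, the receptor that guides cells to lymph nodes, was higher at 7 of 11 peaks, Xcl1, a chemokine that attracts cross-presenting dendritic cells, at 6 of 18, and Tnfsf8, the ligand of CD30, at 8 of 11. Cxcr5, the follicle-homing receptor, was higher at 6 of 9. At its largest difference, 28.4 kb from the gene at chr9:44554836-44555667, it had 125 and 168 in Tprog and 15.3 and 21.1 in Tterm (2.94 ± 0.53, adjusted p = 6.45e-06), and at its strongest peak 999.8 and 1050.5 against 667 and 624 (0.67 ± 0.11). The cytokine receptor chains Il6ra and Il6st had 596 and 550.1 against 342 and 345 (0.73 ± 0.12) and 1247 and 1218 against 945 and 907 (0.41 ± 0.09) at their strongest peaks. At the Cxcr5, Il6ra and Il6st peaks given here, both Tprog libraries exceeded both Tterm libraries. The groups were likewise apart at 99.7% of all called peaks and 59.4% of all peaks.

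Chemokine receptors as a group, which share Cxcr5 and Ccr7 with that list, had 23 of 62 peaks (37.1%) higher and 4 (6.45%) lower in Tprog. Cxcr4, the receptor of a stromal chemokine, had 1130.0 and 1044 against 689.7 and 767 at its strongest peak (0.58 ± 0.09) and was higher at 5 of 12 peaks. Cxcr3, which follows interferon-induced chemokines, had 406 and 431 against 260.4 and 254 (0.70 ± 0.13). Ccr2, a receptor for inflammatory chemokines, went the other way, with 314 and 278 in Tprog against 486 and 539 in Tterm (-0.79 ± 0.12) and 3 of 5 peaks lower. None of these groups overlapped, which held at 99.7% of all called peaks.

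Regulators linked to terminal exhaustion split by gene. Of 196 peaks at 13 genes, 46 (23.5%) were lower and 19 (9.69%) higher in Tprog, with a median of -0.10. With libraries rescaled to the same total, 38 were lower and 24 higher, and within gene bodies alone 15 were lower and 15 higher. Prdm1, which encodes the repressor Blimp-1, was lower at 13 of 22 peaks and higher at none. Its largest difference, within the gene at chr10:44449764-44451102, was 200.4 and 157 in Tprog against 600.3 and 543 in Tterm (-1.68 ± 0.14, adjusted p = 2.52e-18). Its strongest peak, 35.7 kb from the gene, had 489 and 465 against 939 and 949 (-0.98 ± 0.10). Irf8, an interferon-regulatory factor, was lower at 8 of 18 peaks, with 1096 and 1119 against 1854 and 2032 at the strongest (-0.81 ± 0.07). Id2, the effector-cell counterpart of Id3, was lower at 7 of 9, with 1499 and 1482 against 2064 and 2202 at a peak 92.6 kb from the gene (-0.52 ± 0.07). These values did not overlap between the states, which held at 99.7% of all called peaks.

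Tox, Tox2 and Nr4a1, genes that antigen stimulation switches on in exhausted cells, had more open peaks in Tprog. Tox was higher at 6 of 27 peaks and lower at 1, Tox2 higher at 3 of 7 and Nr4a1 at 4 of 6. The strongest Tox peak had 615 and 775 against 573 and 517 (0.34 ± 0.11), a call lost in some alternatives (highest adjusted p = 0.454). Nr4a3 was lower at 4 and higher at 2 of 15 peaks. Batf, an AP-1 partner of effector programmes, had 1392 and 1353 against 1736 and 1789.8 at its strongest peak (-0.36 ± 0.07). On the whole list labelled AP-1 family, 14 of 82 peaks (17.1%) were lower and 7 (8.54%) higher, against 11.2% and 8.88% of all peaks. The list also holds Nfil3, a bZIP factor outside AP-1, which was lower at 5 and higher at 1 of 15 peaks. With libraries rescaled to the same total, the 2 directions of the list were level, 9 and 9.

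Among inhibitory receptors and ectoenzymes, Entpd1, Havcr2 and Cd244a held most of the peaks that were lower in Tprog, and Btla went the other way. Of 80 peaks at 12 genes, 23 (28.8%) were lower and 10 (12.5%) higher, with a median of -0.15. Entpd1, which encodes the ectoenzyme CD39, was lower at 9 of 12 peaks. Its strongest peak, within the gene at chr19:40678551-40680404, had 279.7 and 285 in Tprog and 621 and 674 in Tterm (-1.19 ± 0.12, adjusted p = 4.05e-13), and its start-site peak had 246 and 223 against 682 and 594 (-1.44 ± 0.12). Cd244a, which encodes the receptor 2B4, had 78.1 and 94.0 against 223 and 203 (-1.30 ± 0.22) and was lower at 3 of 4 peaks. Tigit had 1153 and 1186 against 1545 and 1514 (-0.39 ± 0.08) at its strongest peak, and 2 of its 11 peaks were higher and 2 lower. Pdcd1, which encodes PD-1, and Lag3 were each lower at 1 peak, of 9 and 4.

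Btla, an inhibitory receptor of lymphoid tissue T cells, was higher in Tprog at 5 of 7 peaks. At chr16:45251652-45252657 within the gene it had 324 and 280.4 in Tprog and 33.8 and 56.8 in Tterm (2.75 ± 0.24, adjusted p = 2.05e-16), and at its start-site peak 659 and 738 against 467 and 415 (0.66 ± 0.13). Cd101, an immunoglobulin-superfamily receptor often used as a terminal marker, had a start-site peak with 87.2 and 153 in Tprog and 16.3 and 33.9 in Tterm (2.25 ± 0.33, adjusted p = 5.54e-08); its other 5 peaks did not pass the test.

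Among effector genes, more peaks passed as lower than as higher in Tprog, and Ifng held 20 of the lower ones. Of 102 peaks at 14 cytotoxic and cytokine genes, 44 (43.1%) were lower and 7 (6.86%) higher in Tprog, with a median of -0.34. Ifng was lower at 20 of 27 peaks and higher at none, spread from -66.7 to 76.5 kb around its start. The strongest, 23 kb from the gene at chr10:118468895-118471093, had 891 and 878 in Tprog and 1707 and 1617 in Tterm (-0.91 ± 0.08, adjusted p = 9.75e-17). The largest difference, at chr10:118482165-118482957, was 69.1 and 61.2 against 331 and 284 (-2.22 ± 0.23). Gzmb, the main cytotoxic granzyme, had 532 and 589 against 1033 and 1011 at its start-site peak (-0.87 ± 0.10) and was lower at 5 of 9 peaks, and Prf1, the pore-forming perforin, was lower at 3 of 6. Il2, the growth cytokine, ran against the list: 4 of 6 peaks were higher in Tprog and none was lower. A strong peak 47.0 kb from Il2, chr3:37172987-37175105, had 919 and 858 in Tprog and 402 and 432 in Tterm (1.09 ± 0.13, adjusted p = 8.29e-11).

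The granzyme cluster on chromosome 14, whose promoter sequences are printed above, held 4 of the 5 largest falls in Tprog among start-site peaks once the neighbouring protease gene Mcpt8 is included. Gzmf had 15.9 and 15.1 in Tprog against 181 and 151 in Tterm (-3.34 ± 0.51, adjusted p = 1.94e-07). Gzmd had 12.5 and 18.6 against 122 and 143 (-3.03 ± 0.51) and Gzme 61.1 and 49.7 against 303 and 277 (-2.37 ± 0.27). Mcpt8 had 3.40 and 5.32 against 26.1 and 35.7 (-2.58 ± 0.63), with few reads behind each value. The remaining one was Pram1, an adaptor gene, with 1 read in Tprog and 32 in Tterm, a ratio of 32.0 with a 95% exact counting interval of 5.35 to 1304. Gzmc had 89.5 and 57.7 against 170.0 and 178 (-1.26 ± 0.31), a call lost in some alternatives (highest adjusted p = 0.0776).

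Chemokine genes had 25 of 51 peaks (49.0%) lower and 6 (11.8%) higher in Tprog, and all 6 higher peaks belonged to Xcl1. Every peak of Ccl5 (7), Ccl4 (5) and Ccl3 (3), the inflammatory CC chemokines, was lower. The strongest Ccl3 peak, 6.37 kb from the gene at chr11:83639015-83641476, had 1033 and 1071 in Tprog and 2165 and 2133 in Tterm (-1.03 ± 0.07, adjusted p = 1.49e-22). The peak at the Ccl3 start site, which also overlaps the annotated body of Ccl4, had 453 and 565 against 975 and 919 (-0.90 ± 0.10). Ccl5 had 1118 and 1077 against 1584 and 1640.4 (-0.55 ± 0.08), and Ccl9 122 and 64.8 against 348 and 316 (-1.88 ± 0.21). At the chemokine peaks given here the groups did not overlap, which held at 99.7% of all called peaks.

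T-box and ZEB factors had 11 of 54 peaks (20.4%) lower and 5 (9.26%) higher in Tprog. Zeb2 was lower at 6 of 21 peaks, with 721 and 604 against 1019 and 978 at the strongest (-0.60 ± 0.11). Tbx21, which encodes T-bet, was lower at 4 of 9, and its strongest peak had 1049.6 and 1066 against 1261 and 1294 (-0.27 ± 0.09, highest adjusted p over the alternatives 0.314). Eomes, its relative, was higher at 3 and lower at 1 of 14 peaks, and Zeb1 was higher at 1 of 10 and lower at none. Klrg1, a lectin receptor of terminal effector cells, was lower at 6 of 9 peaks, with 476 and 456 against 816 and 743 at the strongest (-0.74 ± 0.11). Among the whole list of killer lectin and NK-type receptors, 10 of 51 peaks (19.6%) were lower and 5 (9.80%) higher.

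**Figure D3:**
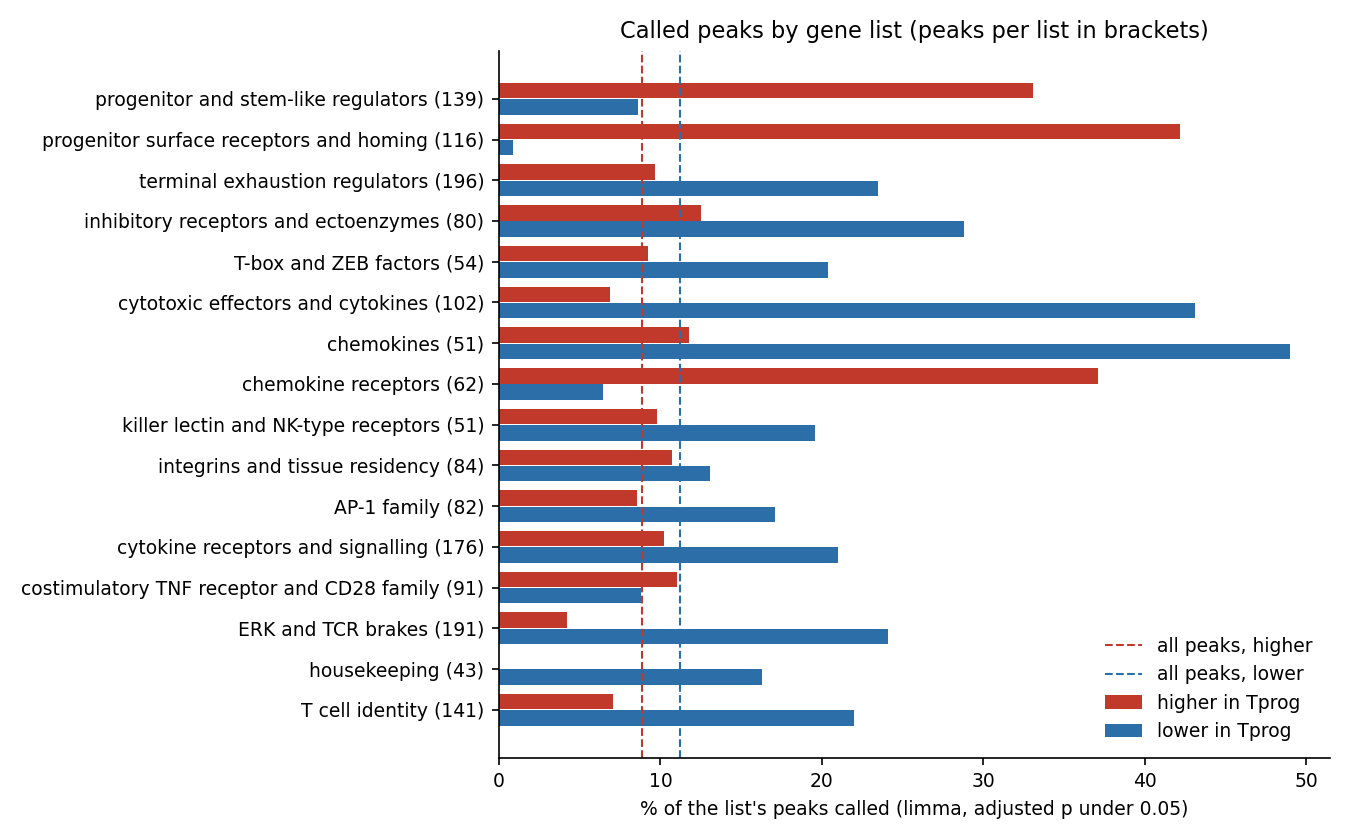
Share of each gene list's peaks (x axis, %) called higher (red) or lower (blue) in Tprog, with the number of peaks per list in brackets; dashed lines mark the shares over all peaks, 8.88% and 11.2%. The lists of homing receptors, chemokine receptors and stem-like regulators have the highest red shares, and chemokines and cytotoxic genes the highest blue ones. Lists of markers of other cell types are not drawn.

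On the list labelled brakes on T cell receptor and ERK signals, 46 of 191 peaks (24.1%) were lower and 8 (4.19%) higher. Over all peaks, 11.2% were lower and 8.88% higher, and among the 13467 strongest peaks 19.4% and 6.82%. The part of peak strength in the list's shares was not tested. Rescaling libraries to the same total gave 37 lower and 10 higher peaks on the list. Ubash3b, Dusp5 and Rgs1 held most of the list's lower peaks. The list also holds Rgs1, a brake on G-protein signals, which was lower at 9 of 21 peaks. Its strongest peak had 637 and 609.5 against 1142 and 1031 (-0.80 ± 0.10, adjusted p = 1.56e-10). Dusp5, an ERK phosphatase and the target of another guide in the series, was lower at 9 of 17, with 1191 and 1264 against 1742 and 1743 (-0.51 ± 0.08). Ubash3b, a suppressor of receptor signals, was lower at 11 of 34 peaks. Cytokine receptor and signalling genes had 37 of 176 peaks (21%) lower and 18 (10.2%) higher, and within gene bodies alone 14 lower and 15 higher. All 5 peaks of Il2rb, the shared beta chain of the IL-2 and IL-15 receptors, were lower, with 2516 and 2533 against 3327 and 3063 at the strongest (-0.34 ± 0.06), and Stat4 was higher at 4 of 19. Integrin and residency genes (9 of 84 higher, 11 lower) and costimulatory receptors (10 of 91 higher, 8 lower) had shares near those of all peaks. Within them Itgb1 was higher at 5 of 18 peaks and Itgav lower at 6 of 14, with 1743 and 1886 against 2441 and 2569 at the strongest Itgav peak (-0.47 ± 0.07).

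The largest differences over the table were at weak peaks that were nearly closed in one of the states. At 4 of the 10 peaks with the largest rise in Tprog no read fell in either Tterm library. Against a floor of 3 reads per library, the peak 90.6 kb from Qrsl1 (46.4 and 56.8 in Tprog) was at least 15.8-fold higher, that in Gigyf2 (57.7 and 28.4) at least 13.2-fold, that near Ei24 (31.7 and 31.9) at least 9.74-fold and that in Dgkg (26.0 and 22.2) at least 7.38-fold. Gmds had 130 reads against 2, a ratio of 65.0 (95% exact counting interval 17.6 to 542), and Ldlrad3 108 against 3, a ratio of 36.0 (12 to 177). Intervals and floors cover counting error only. The other 4, near or in Gypc, Lonrf2, Mob3b and Unc80, had up to 138 normalized reads in Tprog and at most 5.50 in Tterm. Unc80, a channel subunit gene, had 130.2 and 131 against 4.36 and 3.67 (4.72 ± 0.66, adjusted p = 1.35e-08).

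Among the 10 largest falls, the best covered was a peak within Gsap, a gamma-secretase activating protein gene, at chr5:21246793-21247218, with 18.1 and 12.4 in Tprog and 219 and 197 in Tterm (-3.70 ± 0.33, adjusted p = 2.31e-16). The peak near Bmp15 had 3 reads against 73, a ratio of 24.3 (95% exact counting interval 8.01 to 121), and that near Akr1cl 2 against 52, a ratio of 26.0 (6.85 to 221). A further 6, near or in Prkar1b, Lyst, Pecam1, Gldc, Lcn12 and Tmem273, had 0 to 8.87 normalized reads in Tprog and 17.4 to 51.2 in Tterm, and the calls of Pecam1 and Lcn12 were lost in some alternatives (highest adjusted p = 0.0764 and 0.0750).

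The strongest peaks with a log2 difference of at least 1 give the differences with the least counting error. Among those higher in Tprog, a peak within Lrig1, a receptor-tyrosine-kinase inhibitor gene, chr6:94680668-94682108, had 1021 and 983 against 458 and 455 (1.13 ± 0.12). A peak on chromosome 18 with no gene within 100 kb, 79256740 to 79259353, had 1101 and 932 against 280.0 and 324 (1.75 ± 0.13, adjusted p = 6.29e-20). Kcnip1 (924 and 979 against 457 and 471) and Bicdl1 (918 and 880.1 against 405 and 444) had values close to each other, and the peak near Il2 above was the fifth. Among those lower, a peak within Lrrk1, a kinase gene, chr7:66373551-66377449, had 837 and 801 against 1962 and 2009 (-1.28 ± 0.08, adjusted p = 1.55e-25). A peak on chromosome 2 with no gene within 100 kb, 128427974 to 128431306, had 933 and 1002 against 2059 and 2081, Ccdc186 806 and 956 against 1779 and 1771, and Eps8l3 793 and 735 against 1485 and 1584. The Ccl3 peak completed the group. All 10 were picked among called peaks, of which 99.7% had no overlap between the libraries of the states, so their separation adds nothing to the calls.

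Some genes carried long runs of peaks in the same direction. Foxp1, a forkhead factor of quiescence, was higher in Tprog at 25 of 46 peaks and lower at 1. Asap1 was higher at 19 of 30, Arhgef3 at 19 of 36, Rad51b at 16 of 43 and Bach2 at 15 of 35. On the other side, besides Ifng (20 of 27), Prex1 was lower at 15 of 32 peaks, and Aopep (of 26), Atxn1 (of 55), Rgs3 (of 31) and Septin9 (of 28) at 14 each. Among the 5 genes with the most higher peaks, the median difference over all peaks of the gene, called or not, was 0.47 to 1.38, and it was 1.38 at Asap1. Of neighbouring called peaks on a chromosome at most 20 kb apart, 3281 of 3745 pairs (87.6%) had the same direction, against 4486 of 7030 pairs (63.8%) further apart. A gene with many peaks is also a long gene or one with few neighbours, and peaks of 1 gene are not independent.

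**Figure D4:**
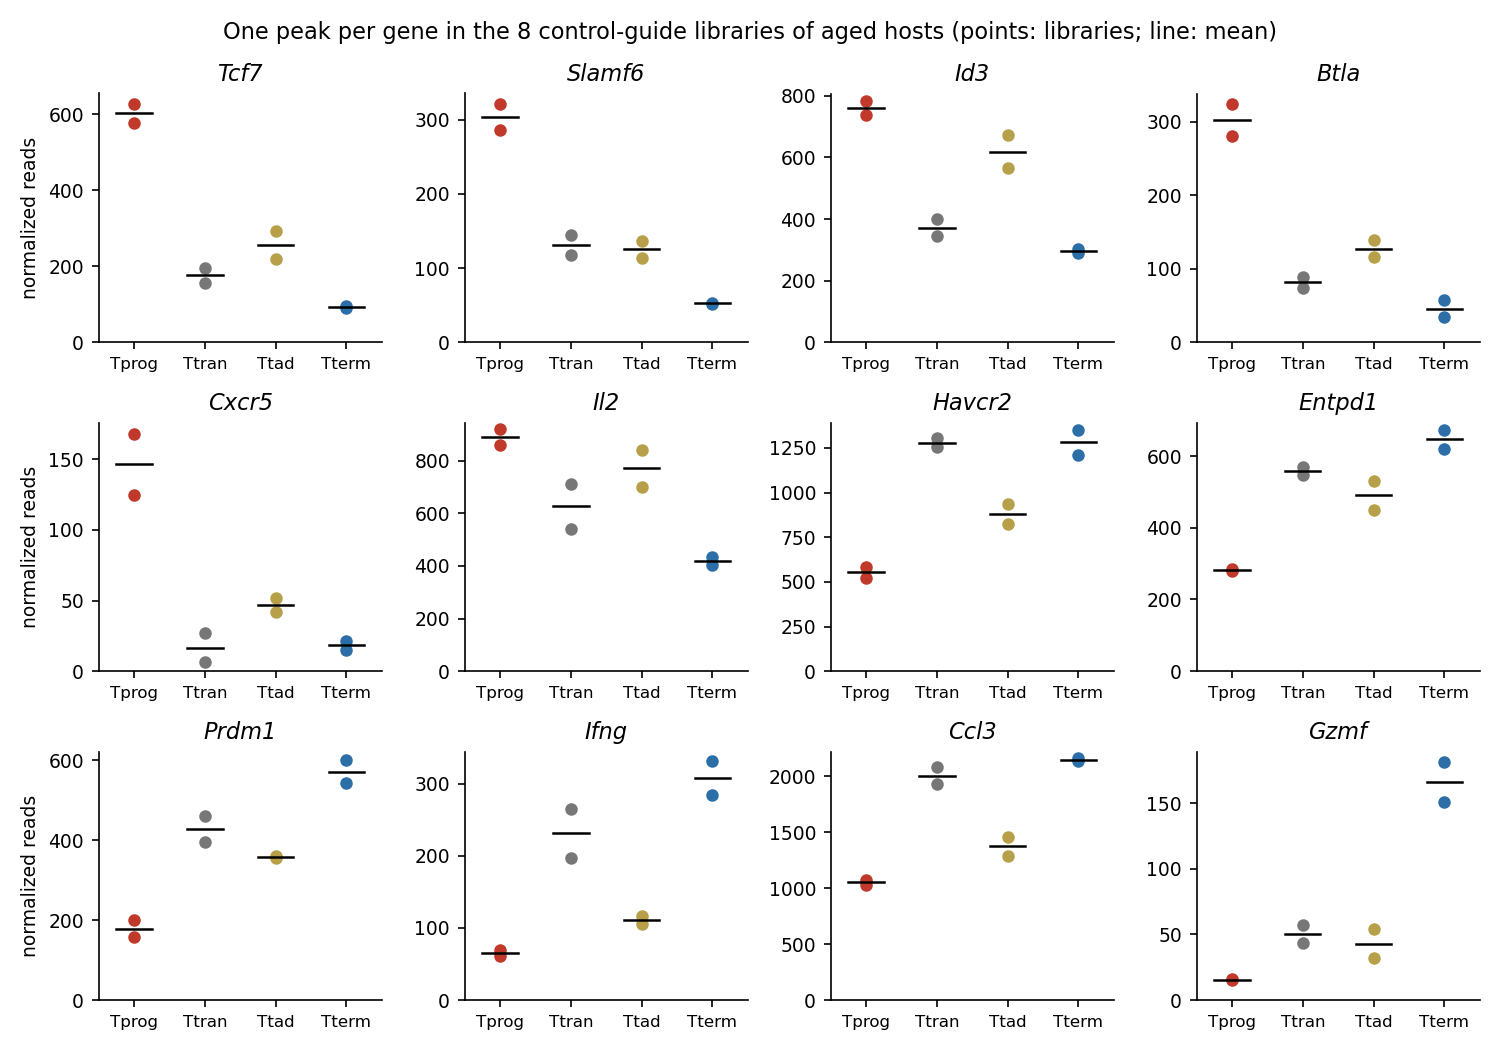
Normalized reads (y axis, from 0) of 1 peak per gene in the 8 control-guide libraries of aged hosts; points are libraries and lines are means of 2. Tprog is highest in the first 6 panels and lowest in the last 6, and Ttran and Ttad lie between Tprog and Tterm in most panels; Ttran reaches the Tterm level at Cxcr5 and Havcr2.

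The 2 other sorted states were not part of the contrast that chose the peaks, though they entered the joint estimate of each peak's spread. At the 2157 peaks lower in Tprog by at least 1, Ttran stood close to Tterm: on a scale from 0 (the Tterm mean of log2 values) to 1 (the Tprog mean) its median position was 0.21, and that of Ttad was 0.51. At the 2746 peaks higher in Tprog by at least 1, the medians were 0.42 for Ttran and 0.55 for Ttad. Ttad was nearer to the Tprog end than Ttran at 1743 (80.8%) and 1719 (62.6%) of these peaks. At the Tcf7 peak at chr11:52273512, Ttran had 196 and 156 and Ttad 218 and 293, between the 628 and 578 of Tprog and the 89.3 and 94.4 of Tterm. At the Havcr2 start site, Ttran had 1256 and 1304, among the Tterm values, and Ttad 825 and 934, between the states. At the strongest Id3 peak, Ttad had 672 and 565 and Ttran 344 and 400.1, and at the largest Ifng difference Ttad had 106 and 117 and Ttran 197 and 265. Both ends of the scale were set by the libraries that chose the peaks, so these positions are a description and were not tested.

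A smaller share of start-site peaks than of other peaks was called. Of 9072 peaks that held a protein-coding start site, 1004 (11.1%) were called, 317 higher and 687 lower in Tprog, against 21.3% of 25515 peaks within gene bodies and 22.7% of 19281 outside them. A difference of at least 1 was reached by 65 start-site peaks that were higher and 36 that were lower, against 1431 and 1176 within gene bodies. Start-site peaks are stronger (median 460 normalized reads, against 71.9 and 64.3), so the comparison was repeated among peaks above the median level of all peaks, where the shares were 11.4%, 31.8% and 36.0%. The direction moved with peak strength: 61.5% of the called peaks in the weakest 25% of peaks were higher in Tprog, and 26% in the strongest 25%. The median difference over all peaks, called or not, was 0.20 in the weakest and -0.08 in the strongest 25%. Of the widest 25%, 8.96% were higher and 16.1% lower, and of the narrowest 5.67% and 5.03%.

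Among start-site peaks, the largest rises in Tprog were at Trpm1, a cation channel gene, with 117 and 81.6 against 10.9 and 2.75 (3.88 ± 0.60, adjusted p = 1.86e-07), Vat1l with 41.9 and 86.9 against 2.18 and 10.1 (3.37 ± 0.70), and an internal start of Tcf12, an E-protein gene, with 51.0 and 63.9 against 2.18 and 13.7 (3.08 ± 0.50). Ifna1 and A530021J07Rik followed, with at most 55.9 normalized reads, and their calls were lost in some alternatives (highest adjusted p = 0.496 and 0.187). Several windows can share a motif without any relation to the state, so the shares are set beside those of all 9072 windows of 300 bases. An IRF match was in 7.57% of the 317 windows at peaks higher in Tprog, 3.49% of the 687 lower and 3.16% of all. NF-kB matches were in 0.631%, 2.47% and 1.60%, KLF matches in 33.4%, 42.6% and 37.1%, E-box matches in 19.6%, 14.8% and 14.3%, and NR4A matches in 1.89%, 1.02% and 0.728%. RUNX matches, present in the granzyme windows, were in 14.2%, 16.6% and 12.6%, bZIP matches (TGANTCA) in 4.42%, 6.11% and 4.65%, and TCF/LEF matches (ATCAAAG) in 2.52%, 1.89% and 2.22%. The other shares were T-box (GGTGTGA: 3.79%, 4.37% and 3.34%), ETS (15.5%, 13% and 12.2%), NFAT (18%, 13.2% and 15.8%) and CTCF (17.4%, 18% and 17.4%). All motifs but IRF, NF-kB and NR4A differed by less than a factor of 1.5 between the sets. NF-kB was in only 2 of the 317 windows, and NR4A in 6 of the 317 and 7 of the 687. The windows at higher peaks had a lower median GC content (58.7%, against 62.3% and 61.7%), which moves with any motif's share, and its part was not tested.

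The difference between Tprog and Tterm was not the same in aged and young hosts. A test of that difference over the control-guide libraries called 1250 peaks (2.32%): at 276 (0.512%) the Tprog minus Tterm difference was higher and at 974 (1.81%) lower in aged hosts, a split that moved to 304 and 346 after quantile normalization and to 407 and 503 with libraries rescaled to the same total. The count fell to 662 without aged Tprog replicate 1, to 696 without young Tprog replicate 2, to 715 and 755 without aged Tterm replicate 1 or 2, and to 782 and 790 without aged Tprog replicate 2 or young Tprog replicate 1. Column names restart their sample numbers for each host age, so host age and whatever that numbering stands for cannot be told apart. Of the 974 peaks with a lower difference in aged hosts, 508 were called lower in aged Tprog and 592 higher in young Tprog, and 135 were called in both ages in opposite directions.

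The strongest Id3 peak shows a progenitor gene in this test. Young Tprog had 776 and 781 normalized reads there, close to the 738 and 783 of aged Tprog, while young Tterm had 92.9, 88.8 and 92.8 and aged Tterm 303 and 291. The differences were thus 3.08 in young and 1.35 in aged hosts, and they differed by -1.72 ± 0.24 (limma adjusted p = 2.00e-07). The strongest Slamf6 peak differed by 0.67 in aged and 1.53 in young hosts (-0.86 ± 0.20, adjusted p = 0.00698), and the strongest Cxcr5 peak by 0.67 and 1.3 (-0.63 ± 0.15, adjusted p = 0.00497). Other peaks of these genes did not pass: the value was -0.37 at the Id3 start site. At the largest-difference peaks of Slamf6 and Cxcr5 it was -0.07 and -0.25. The strongest Prdm1 peak was lower in Tprog by more in aged hosts, -0.98 against -0.34 (-0.65 ± 0.14, adjusted p = 0.00174). The start-site peak of Runx3, the CD8 lineage factor, had 2224 and 2129 in aged Tprog against 2739 and 2959 in aged Tterm, and 2629.8 and 2628 in young Tprog against 2232, 2084 and 2291 in young Tterm. There the direction itself turned between aged and young hosts with the control guide (-0.64 ± 0.08, adjusted p = 1.49e-08), while the aged difference was 0.04 with the Zfp219 and -0.14 with the Dusp5 guide. The largest values of this test other than Thy1 (described next) were at peaks with at most 92.3 normalized reads: Map3k5 (4.17), Atp2b3 (4.02) and Etv4 (3.58) upward, and Uckl1 (-3.47) and Lyst (-2.91) downward.

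**Figure D5:**
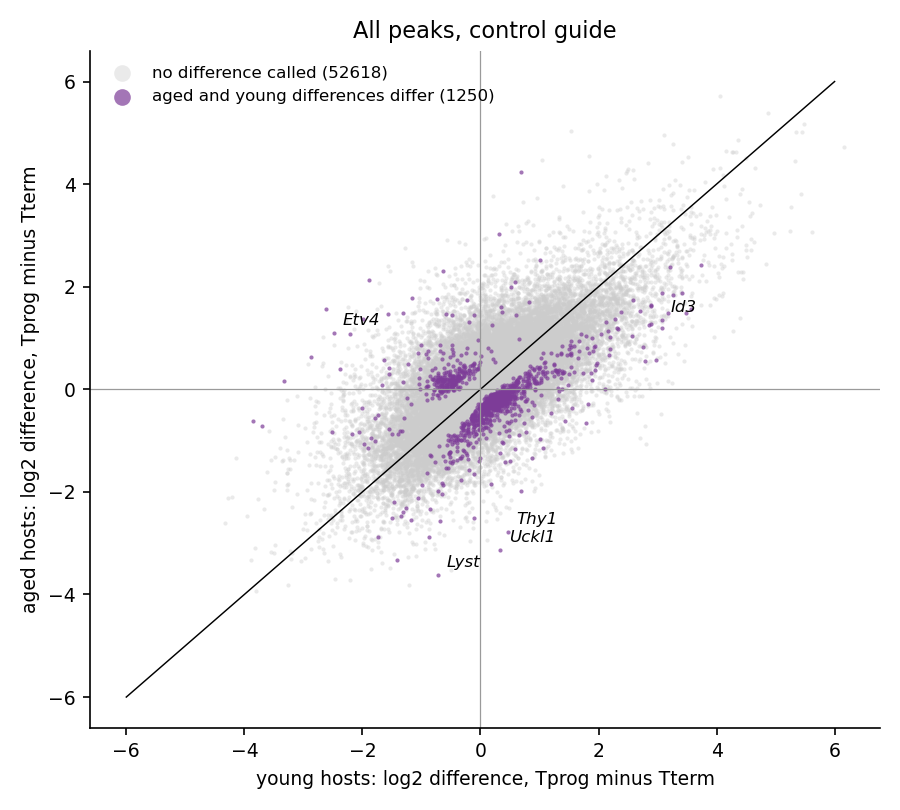
Log2 difference between Tprog and Tterm in aged hosts (y axis) against that in young hosts (x axis) for all 53868 peaks, control guide, with the line of equal values. Purple points are the 1250 peaks at which the difference itself differed (limma adjusted p under 0.05); 974 of them lie below the line, among them Id3, Thy1, Lyst and Uckl1.

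T cell identity genes were open in all 4 libraries, with 10 of 141 peaks higher and 31 lower in Tprog (7.09% and 22%). Runx3 was lower at 10 of 23 peaks and Bcl11b, the T lineage factor, at 6 of 20, while Cd8b1 was higher at 3 of 7 and none of the 6 Cd8a peaks passed the test. With libraries rescaled to the same total, the counts were 16 higher and 24 lower. A peak within Thy1, which encodes a surface glycoprotein of T cells, stood apart. At chr9:44046603-44047436 it had 135 and 122 in Tprog, 959 and 829 in Tterm, 2944 and 3051 in Ttran and 4884 and 4611 in Ttad (Tprog minus Tterm -2.79 ± 0.14, adjusted p = 2.24e-30). With the Zfp219 and Dusp5 guides in aged hosts the same difference was 0.65 and 0.69, and in young hosts 0.46, where all 24 young libraries lay between 148 and 601. Among the aged libraries with those guides, Ttran of the Zfp219 guide also reached 3153 and 3158. The high values thus belong to some aged groups and not to aged hosts in general, and whether these reads come from open chromatin at this site was not tested. The strongest Thy1 peak, 11 kb from the gene, had 973 and 968 against 1294 and 1291, a difference of -0.41 that was -0.36, -0.32 and -0.30 in the other 3 contrasts.

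Housekeeping genes had 7 of 43 peaks (16.3%) lower and none higher in Tprog in limma; 4 were lower after quantile normalization and 3 with equal totals. Gapdh, the glycolytic enzyme, had 1029 and 1180.0 against 1473 and 1381 at its start-site peak (-0.37 ± 0.08), so differences of this size at strong peaks also occurred at genes not tied to exhaustion. Lists of markers of other cell types were small. Of 8 melanoma genes, Tyr, Tyrp1 and Dct had no assigned peak, and 1 of 11 peaks of the rest was higher in Tprog. Myeloid genes had 3 of 44 peaks higher and 2 lower, with no peak at Csf1r, Adgre1 or Lyz2. B cell genes had 3 of 12 peaks higher (at Pax5 and Ebf1) and 1 lower, with no peak at Ms4a1, Cd79a or Cd79b. Foxp3 had no peak, and 2 of 14 peaks of CD4 and regulatory T cell genes were lower in Tprog. Stromal and endothelial genes had 9 of 21 peaks lower, all 9 at Pecam1, which T cells can express.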

How the data were processed

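Independent mice were pooled into 2 or 3 replicates per group, and 50 bp reads were taken from each side of the fragments, per the labels. The deposited signal values are reads in each of 53868 peaks divided by 1 size factor per library. Multiplied back by that factor, all values came out as whole reads (tolerance 0.001 reads). The submitters' processing notes name Bowtie2 2.2.9, Picard 2.8.0, MACS2 2.1.1, SAMtools 1.3.1, DESeq2 1.28.1 and mm10, without their roles. The handling of reads that map to several places and the peak-calling thresholds are not given in the sources used here.

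Values were tested as log2(value + 1) with limma 3.58.1 (R 4.3.3) on group means over all 48 libraries, with a trended prior and Benjamini-Hochberg adjustment over all peaks. edgeR 4.0.16 on the recovered reads (11506 peaks called with the deposited factors), other scalings, a filter, a replicate block and leaving out each library served as alternatives. "Highest adjusted p" is over these alternatives. The method was tested on simulated data. With 2 libraries against 2, counting error is small at strong peaks and limits the weak ones.

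Coordinates are as deposited; 53.1% of RefSeq start sites (GRCm38.p6) lay inside a peak, against 4.27% after a shift of 10 kb. Members and gene lists were chosen with earlier results of these data known. Genes were named by fixed rules: the markers, up to 5 members of a list with the largest difference at their strongest peak, the 10 largest rises and falls with a mean of at least 20 in the higher group, the 5 genes with most called peaks each way, the 5 largest start-site differences, the 3 largest age differences and the 5 strongest peaks changed by at least 1. Other list members (Tox, Nr4a1, Lef1, Pdcd1, Cd101 and the like), further peaks of Tcf7, Slamf6 and Entpd1 and the Thy1 peak were singled out after their values were seen. A few genes that these rules name are not reported here.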

Additional observations from a re-analysis of the deposited data

Results flagged for a closer look

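The difference between Tprog and Tterm was itself tested between aged and young hosts, and 30 of the named peaks passed (limma adjusted p under 0.05). Over all peaks, 2.32% passed. Map3k5, Atp2b3, Etv4, Thy1, Uckl1 and Lyst were named for the largest values among the calls of this test. Their passing was thus fixed in advance. Values below are the log2 difference in aged minus that in young hosts, and host age cannot be told apart from the sample numbering, which restarts with it. Negative values made up 974 of all 1250 calls of this test, so a negative value is not particular to the genes below. That share depended on the scaling: 346 were negative and 304 positive after quantile normalization, and 503 and 407 with equal totals. Each value belongs to 1 peak and not to the whole gene. Among progenitor genes the value was -1.72, -0.86 and -0.63 at the strongest peaks of Id3, Slamf6 and Cxcr5, all smaller rises in aged hosts. It was 0.34 at Foxo1. At the called peaks of Id3, Slamf6 and Cxcr5 with the largest Tprog minus Tterm difference, it was -0.37, -0.07 and -0.25, and none passed. Strongest peaks of effector and terminal genes had lower values as well: -0.65 at Prdm1, -0.39 at Ifng, -0.58 at Ccl3, -0.40 at Ccl5 and -0.34 at Batf. At the called peaks of these genes with the largest difference, the values were -0.51, -0.32, -0.18, -0.34 and -0.52, and none passed. Tbx21 had -0.54 at its called peak with the largest difference. Chemokine and cytokine receptors had -0.82 at Ccr2, -0.44 at Ccr8, -0.28 at Il2rb and -0.41 at Tnfrsf1b. The largest-difference peaks of Ccr2, Il2rb and Tnfrsf1b had -0.27, -0.92 and -0.36, and none passed. Signalling and AP-1 genes had -0.45 at Stat3, -0.40 at Dusp5, -0.33 at Dusp2 and -0.48 at Atf3. Runx3 had -0.64 and the Thy1 peak -3.25, and at both the sign differed between aged and young control-guide libraries. The sign also differed at Atf3 (-0.23 in aged and 0.25 in young hosts) and Dusp2 (-0.21 and 0.13), with calls at both ages. In aged hosts the Thy1 difference was 0.65 with the Zfp219 and 0.69 with the Dusp5 guide, the same sign as the 0.46 of young hosts, and whether its reads come from open chromatin was not tested. Of the strongest peaks, Kcnip1 had -0.76, Bicdl1 -0.63 and Lrrk1 -0.43, and the peaks without a gene on chromosomes 18 and 2 had -0.83 and -0.40. At weak peaks the value was 4.17 at Map3k5, 4.02 at Atp2b3, 3.58 at Etv4, -3.47 at Uckl1 and -2.91 at Lyst. At Map3k5, 1 aged Tterm library had 0 normalized reads and the other 15.6.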

How the results depend on the processing

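The count of 10806 peaks stayed within 1.5 times under edgeR, a pseudocount of 8, quantile normalization, equal totals, a filter and narrower sets of libraries (10205 to 12485). Same-numbered Tprog and Tterm libraries did not deviate together (r = 0.00828) and share only a number. The count was 13087 with the replicate block, and 7076 to 7467 with 1 library left out. The share higher in Tprog was 44.3%, and 53.4% with equal totals. The age test gave 2360 with the compared groups alone, 650 after quantile normalization, 1504 with the replicate block and 662 to 986 without 1 library. Of its calls 22.1% were higher in aged hosts, against 46.8% after quantile normalization and 44.7% with equal totals. Leaving out 1 library gave 6283 to 7187 peaks for Zfp219 (12347 with the block), 7889 to 10576 for Dusp5 (10985) and 9518 to 12093 for young hosts (15474). The counts that moved by over 1.5 times were those without Zfp219 Tprog replicate 1 (6331) or Tterm replicate 1 or 2 (6283, 6467), Dusp5 Tprog replicate 1 (8124) or Tterm replicate 2 (7889), and young Tprog replicate 2 (9518). Of 191 named values, 63 lost their call in some alternative, 34 of them with no replicate left out; 1 changed sign, Map3k5 in aged hosts, at -0.47 without Tterm replicate 1 and 3.58 without replicate 2. Restricting lists to peaks within gene bodies moved 30 of 42 list counts by over 1.5 times, as fewer peaks were counted. Depth limits the weak peaks, where 1 to 3 reads set a ratio.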
